A study of Homo sapiens with 15 samples.

Results

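The nuclear-encoded subunits of the mitochondrial respiratory chain and ATP synthase were followed in breast cancer cells with and without acquired tamoxifen resistance. Members were taken by gene symbol: all genes whose symbol marks a subunit of complex I (NDUF), complex II (SDHA to SDHD), complex III (UQCR), complex IV (COX4 to COX8, with NDUFA4 and NDUFA4L2) or complex V (ATP5), with pseudogenes, antisense transcripts and NDUFAF assembly factors left out, and with at least 10 counts in at least 3 of the 15 libraries. The rule gave 84 members among the 60664 gene identifiers counted: 37 in complex I, 4 in complex II, 9 in complex III, 14 in complex IV, 18 in complex V, and the divergent transcripts NDUFA6-DT and UQCRFS1-DT, which are not coding. Of these, 83 passed the filter on low counts and were tested, and 73 had at least 10 counts in every library. COX4I2, with 10 counts in 3 libraries, and UQCRFS1-DT, with 10 counts in 6 libraries, lay just inside the rule, and ATP5MF-PTCD1, with 10 counts in 1 library, lay just outside it.

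The cells were T47D, an established estrogen receptor-positive human breast cancer line, sequenced as bulk RNA. PAR01, the parental line, sensitive to 4-hydroxytamoxifen (4-OHT, the active metabolite of tamoxifen), was measured on vehicle (0.05% DMSO) only, and TR01, a line resistant to 4-OHT, was measured on vehicle, on 1 µM 4-OHT, on 5 µM erdafitinib (an inhibitor of the fibroblast growth factor receptors) and on both drugs, with 3 libraries in each of the 5 groups after 120 h of treatment. The parental line was kept in RPMI with 5% fetal bovine serum and the resistant line in medium with 2% charcoal-stripped serum and 1 µM 4-OHT, both with 8 µg/mL insulin. All were starved for 48 h in phenol red-free medium with 2% serum before treatment. Growth medium up to the starvation and the line itself therefore cannot be told apart, the resistant state is that of 1 derived line, and no parental cells on either drug were compared. The libraries are labelled as biological replicates with no further detail, so p-values speak to the spread among these libraries alone, which could be technical in part.

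The respiratory chain passes electrons from NADH (complex I) and succinate (complex II) through ubiquinone, complex III and cytochrome c to oxygen at complex IV, and the proton gradient that this builds drives ATP synthesis at complex V. Complex II belongs to the tricarboxylic acid cycle as well and is encoded wholly in the nucleus, whereas the other complexes combine nuclear subunits with a few encoded in the mitochondrial genome. In cultured tumour cells the chain serves to reoxidise NADH as well as to make ATP, and several complex IV subunits have alternative isoforms whose use differs between tissues and oxygen levels.

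Total counts in genes ranged from 6946684 (parental replicate 2) to 28717380 per library, with a median of 22304029; the next shallowest library was resistant 4-OHT replicate 2 with 8990899. Each of 9 luminal breast markers exceeded 1 CPM (counts scaled to library size) in every library, and 2 muscle and 3 endothelial markers summed to at most 0.052 CPM in any library. Of 4 immune markers 1 passed 1 CPM in any library, with CD3E at 0 throughout. The summed level of 6 fibroblast markers, 2 of them over 1 CPM in any library and COL1A2 at 0 throughout, was 11.9 to 28.2 CPM in the parental and 13.3 to 37.7 CPM in the resistant vehicle libraries. The summed level of 6 basal or myoepithelial markers, none of them at 0 throughout and 3 of them over 1 CPM in any library, was 4.47 to 4.95 CPM in the parental libraries and 409.8 to 1140.2 CPM in the resistant vehicle libraries. In the treated resistant libraries that sum was 959.9 to 1209.5 CPM on 4-OHT and 443.7 to 685.9 CPM on erdafitinib. On both drugs it was 408.8 to 509.4 CPM. Because that sum moves with every contrast between the lines, and with both drugs against 4-OHT, it is stated once. Its part in these results was not tested. In bulk RNA, fewer cells of a type and less RNA per cell cannot be told apart. The largest direction of spread within groups held 49.5% of the within-group variance and moved with the GC content of genes. The mean deviation of the fifth of genes richest in GC ran from -1.02 (log2) in resistant vehicle replicate 1 to 0.89 in parental replicate 3.

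Promoters are shown for members whose levels differed between the lines and whose sequence holds a searched motif. Because the choice required a motif, the sequences shown cannot tell whether motifs go with the differences. RefSeq sequences (GRCh38.p14) were found for 66 of the 82 coding members, and the 250 bases before the transcription start are printed 5′ to 3′ on the gene's strand. Capitals mark the recognition sequences GCATGCGC, the core bound by nuclear respiratory factor 1 (NRF1), or the longer GCGCATGCGC that contains it; CCGGAAGT, bound by ETS factors such as GABPA; and CACGTG, the E-box; each was searched on both strands, so that a match on the other strand appears as its reverse complement.
COX5B promoter, chr2:97645812-97646061, plus strand: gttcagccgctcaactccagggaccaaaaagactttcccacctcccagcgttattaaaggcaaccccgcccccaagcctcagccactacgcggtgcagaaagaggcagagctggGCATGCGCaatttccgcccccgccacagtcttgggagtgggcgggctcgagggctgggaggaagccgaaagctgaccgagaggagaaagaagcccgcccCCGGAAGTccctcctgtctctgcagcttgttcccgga
SDHD promoter, chr11:112086623-112086872, plus strand: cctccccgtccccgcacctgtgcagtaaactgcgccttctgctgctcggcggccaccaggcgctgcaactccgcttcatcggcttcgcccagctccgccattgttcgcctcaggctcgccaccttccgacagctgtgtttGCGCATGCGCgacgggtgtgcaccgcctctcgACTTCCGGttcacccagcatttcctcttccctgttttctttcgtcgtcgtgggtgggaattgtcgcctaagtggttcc
SDHB promoter, chr1:17054033-17054282, minus strand: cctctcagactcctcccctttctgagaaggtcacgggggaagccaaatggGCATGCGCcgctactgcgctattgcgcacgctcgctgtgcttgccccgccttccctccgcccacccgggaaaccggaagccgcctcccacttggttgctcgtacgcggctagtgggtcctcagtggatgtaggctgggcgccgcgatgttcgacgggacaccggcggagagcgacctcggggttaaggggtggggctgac
NDUFS1 promoter, chr2:206159445-206159694, minus strand: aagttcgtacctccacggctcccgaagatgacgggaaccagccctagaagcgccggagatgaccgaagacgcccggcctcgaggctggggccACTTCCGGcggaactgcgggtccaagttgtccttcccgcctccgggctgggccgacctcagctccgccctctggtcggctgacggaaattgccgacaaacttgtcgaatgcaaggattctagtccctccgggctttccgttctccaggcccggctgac
NDUFA7 promoter, chr19:8321376-8321625, minus strand: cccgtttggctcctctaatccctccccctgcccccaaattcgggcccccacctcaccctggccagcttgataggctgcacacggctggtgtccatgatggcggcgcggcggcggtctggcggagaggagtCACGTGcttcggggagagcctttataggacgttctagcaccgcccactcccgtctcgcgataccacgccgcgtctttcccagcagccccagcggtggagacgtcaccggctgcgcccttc
SDHD and SDHB were chosen for display after their values were seen; the other promoters came from the rule for named genes. Of the members called lower on vehicle, 11 had a promoter in the table: 4 held a searched motif before the start (COX5B, SDHD, SDHB and NDUFS1, above) and 7 did not (COX5A, COX7A2L, COX7C, NDUFA8, NDUFB1, NDUFS4 and UQCRC2). Of those called higher, NDUFA7 held one and ATP5F1A did not. Over all 66 members' promoters, called or not, GCATGCGC lay before the start in 12, CCGGAAGT in 10 and CACGTG in 6. Members that were not called thus held these motifs too. Whether the motifs go with the differences was not tested.

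Over the whole window of 250 bases before and 50 after the start, GCATGCGC was present in 13 of the 66 members' promoters (19.7%), against 3.27% of all 27305 promoters and 5.54% of those of the genes tested. CCGGAAGT was present in 10 (15.2%, against 4.44% of all promoters and 8.55% of those of the genes tested) and AAGATGGC, bound by YY1, in 11 (16.7%, against 3.03% and 5.29%). The cyclic AMP response element TGACGTCA was present in 5 (7.58%, against 1.98% and 3.25%). CACGTG was present in 7 (10.6%), a share close to that of the genes tested (9.91%; 7.43% of all promoters). TCAAGGTCA, the element of the estrogen-related receptors, was present in 1 (1.52%, against 0.36% and 0.18%), and GGTCANNNTGACC, the estrogen response element, in none of these windows. AAGATGGC lay mostly after the start: in the bases before it alone, 1.52% of the members' promoters held it, against 1.89% of those of the genes tested.

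Levels of different members were compared as TPM, which scales counts to the annotated exonic length of each gene and to library size. The order of members below therefore depends in part on the annotated lengths, which can differ from those of the transcripts present. Within complex I, NDUFA1, a small membrane subunit, had the highest mean level, 502 TPM in the parental and 684 TPM in the resistant vehicle libraries, and NDUFA9, a subunit near the quinone site, the lowest, 0.58 and 0.63 TPM. In complex II, SDHC was at 231 and 227 TPM and SDHA, the flavoprotein, at 2.04 and 1.46 TPM. UQCRH led complex III (342 and 378 TPM) and its near copy UQCRHL was lowest (1.68 and 1.52 TPM). COX6C led complex IV (198 and 214 TPM), with COX4I2 lowest (0 and 0.76 TPM), and ATP5F1B, the catalytic beta subunit, led complex V (527 and 530 TPM), with ATP5F1D lowest (2.20 and 2.74 TPM). The low level of SDHA stands beside 26679 counts over all libraries in its pseudogene SDHAP4, 5305 in SDHAP1 and 2535 in SDHAP3, so counts of SDHA may be split between copies and are uncertain. Outside complex II, 46 members had at least 1 pseudogene named after them in the annotation, 174 in all. Pseudogenes named after SDHB, SDHC or SDHD were not searched for. Whether counts of these genes are split between copies was not tested.

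Resistant cells on vehicle had lower RNA levels of several subunits of complexes II and IV than parental cells on vehicle, while the median of the complex V subunits was near 0. Both SDHB and SDHD fell to about the same extent, and in complex IV the falls were those of COX5A, COX5B, COX7A2L, COX7C, NDUFA4 and NDUFA4L2. In complex III the core protein UQCRC2 fell, and complex I had 4 members that fell, led by NDUFS4 and NDUFA8. The members that rose were NDUFA7 of complex I, ATP5F1A of complex V and the transcript NDUFA6-DT. By edgeR's quasi-likelihood test with Benjamini-Hochberg adjustment over all 16210 genes, at an adjusted p under 0.05, 35.9% of all genes differed between the lines, 19.9% higher and 16.0% lower in resistant cells. Among the 83 members, 13 (15.7%) were lower, which is near the share over all genes, and 3 (3.61%) were higher. The 3 resistant libraries lay wholly below the 3 parental libraries for 18 members and wholly above for 5, against 18.5% and 22.5% of all genes.

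The calls were unevenly placed among the complexes. In complex IV, 6 of 13 members tested fell (46.2%) and none rose, 12 of 13 log2 fold changes were negative, and their median was -0.64. In complex II, 2 of 4 fell and the median was -0.83. In complex III 1 of 9 fell (median -0.22), in complex I 4 of 37 fell and 1 rose (median -0.08), and in complex V none of 18 fell and 1 rose (median -0.03). The median over all members was -0.13 and over all genes tested 0.07. Without parental replicate 2 the medians of complexes II and III were -0.55 and 0.11. These are descriptions of the lists and were not tested as sets.

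**Figure D1:**
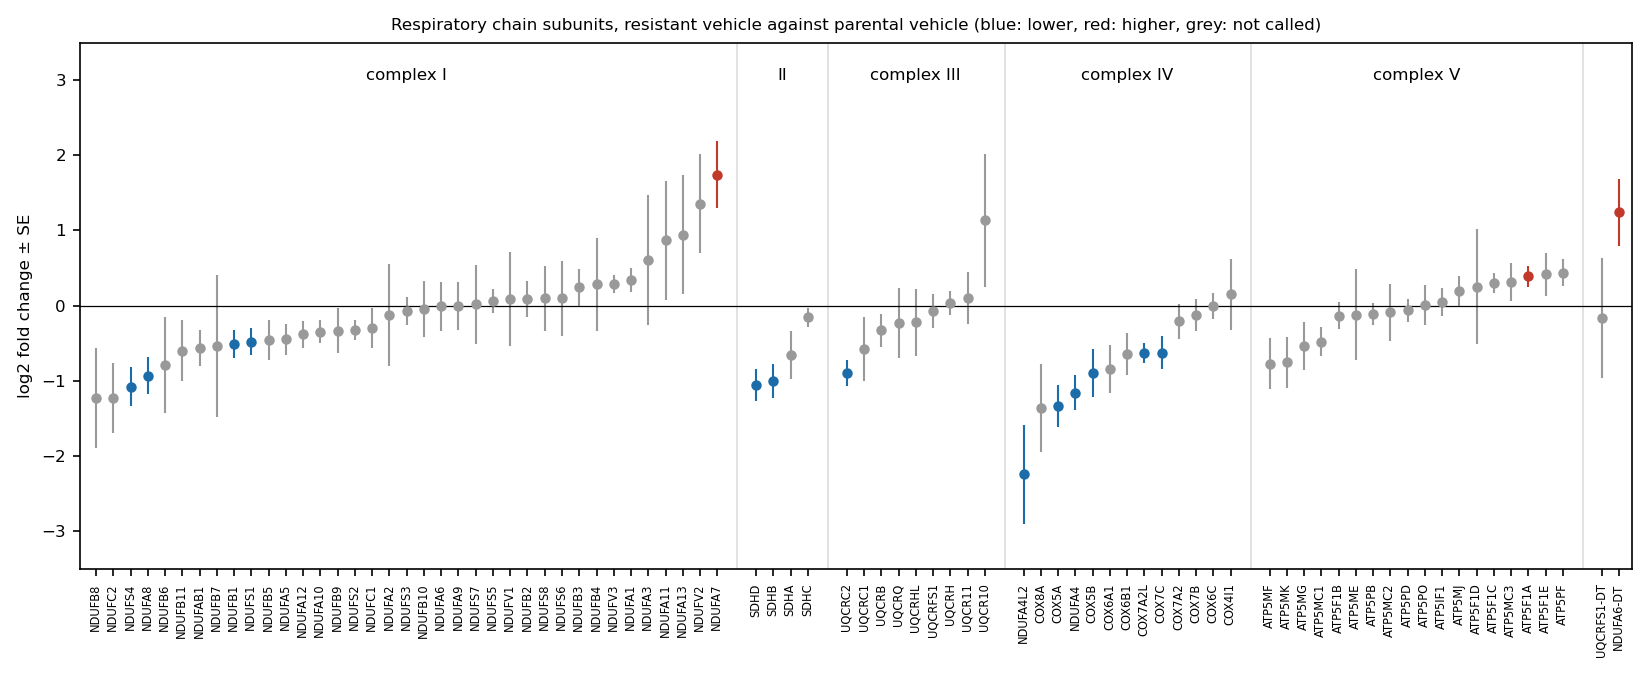
Log2 fold change (y axis, ± SE from the edgeR fit, 3 libraries per group) of each of the 83 members tested, resistant vehicle against parental vehicle, ordered within each complex along the x axis; blue points fell, red points rose and grey points did not pass the adjusted p of 0.05. Most points of complex IV lie below 0 (12 of 13), while those of complex V lie on both sides.

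Complex II oxidises succinate with a catalytic head (SDHA, SDHB) anchored in the membrane by SDHC and SDHD. SDHB, the iron-sulphur subunit (chromosome 1, 17018722 to 17054032, minus strand, GRCh38), was at 33.4, 51.3 and 41.7 CPM in the parental libraries and at 15.6, 24.9 and 22.5 CPM in the resistant vehicle libraries. The groups did not overlap, and SDHB fell by 1.00 ± 0.23 on the log2 scale (SE, n = 3 per group), with an edgeR adjusted p of 0.00327. SDHD, the small anchor subunit (chromosome 11, 112086824 to 112120016, plus strand), was at 55.1, 62.9 and 47.1 CPM against 30.5, 26.3 and 22.7 CPM. Every resistant library was below every parental library, and SDHD fell by 1.05 ± 0.21 (adjusted p = 0.00133).

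The other subunits of complex II did not pass the test on vehicle. SDHA read 6.29, 11.6 and 5.49 CPM in parental and 4.02, 4.6 and 5.95 CPM in resistant cells, groups that overlap, with a log2 fold change of -0.66 ± 0.32 and an adjusted p of 0.125. SDHC, the larger anchor subunit, was at 187, 198 and 173 CPM against 164, 163 and 172 CPM. Its groups did not overlap, but only narrowly so, and its difference was -0.16 ± 0.13 (adjusted p = 0.357). The members of this 4-subunit enzyme thus ranged from a log2 difference of -0.16 to -1.05.

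In complex IV, COX5A, the subunit that binds thyroid hormone metabolites on the matrix side (chromosome 15, 74919791 to 74938083, minus strand), was at 20.8, 40.2 and 18.0 CPM in parental cells and at 10.2, 10.7 and 10.2 CPM in resistant cells on vehicle. Parental replicate 2 was high, and without it the groups still did not overlap; COX5A fell by 1.33 ± 0.28 (adjusted p = 0.00194). NDUFA4, assigned here to complex IV, with which its protein associates (chromosome 7, 10931943 to 10940153, minus strand), was at 160.1, 239 and 160.0 CPM against 66.5, 99.9 and 83.6 CPM. The highest resistant library lay well below the lowest parental library, and NDUFA4 fell by 1.16 ± 0.23 (adjusted p = 0.00135). COX7A2L, known for its role in joining complexes III and IV into supercomplexes (chromosome 2, 42333546 to 42425088, minus strand), was at 123, 142 and 144 CPM against 73.0, 98.9 and 91.9 CPM. These groups were separate too, with a smaller fall of 0.63 ± 0.14 (adjusted p = 0.00233).

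Lower in expression, NDUFA4L2, a paralogue of NDUFA4 known as a target of hypoxia-inducible factor (chromosome 12, 57234903 to 57240715, minus strand), was at 4.78, 1.27 and 4.44 CPM in parental and at 0.26, 0.90 and 1.06 CPM in resistant vehicle libraries. The values rest on 57, 8 and 122 counts against 5, 24 and 31, the groups did not overlap, and NDUFA4L2 fell by 2.24 ± 0.66 (adjusted p = 0.0159). COX5B, which carries the zinc site of complex IV, was at 7.80, 6.04 and 12.1 CPM against 2.94, 5.99 and 5.13 CPM, a difference of -0.90 ± 0.32 (adjusted p = 0.0402). Its groups were separate only by the small gap between parental replicate 2 and resistant replicate 2. COX7C, a small transmembrane subunit given here after its values were seen, was at 149, 183 and 156 CPM against 70.7, 131 and 114 CPM, a fall of 0.62 ± 0.22 (adjusted p = 0.0429).

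Several common complex IV isoforms did not pass the test. COX4I1, which takes part in the regulation of the enzyme by ATP, was at 79.6, 84.7 and 207 CPM in parental and 55.1, 191 and 168 CPM in resistant cells, a spread within each group that left the difference at 0.15 ± 0.47 (adjusted p = 0.834). Its alternative COX4I2, known from lung and hypoxic cells, had 0, 0 and 0 counts in the parental libraries and 2, 7 and 6 in the resistant vehicle libraries, counts under the filter on low values. Without that filter it was called higher than parental on vehicle (edgeR adjusted p = 0.0402), 4-OHT (0.0435), erdafitinib (0.0118) and both drugs (0.0181), from counts of at most 18 in any library. The SE of these log2 fold changes was 1.70 to 1.81. COX4I2 met the count rule through resistant libraries alone, so a rise over parental was built into its selection. These calls are therefore no support for a rise. The differences for COX8A (-1.36 ± 0.59, adjusted p = 0.0867), COX6A1 (-0.84 ± 0.32, adjusted p = 0.0545) and COX6B1 (-0.64 ± 0.28, adjusted p = 0.0848) did not reach the threshold, although COX8A and COX6A1 had separate groups. COX7A2 (-0.21 ± 0.23), COX7B (-0.12 ± 0.21) and COX6C (-0.01 ± 0.17) had smaller differences. The muscle and testis forms COX6A2, COX6B2, COX7A1, COX7B2 and COX8C were below the count rule and have no value here.

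**Figure D2:**
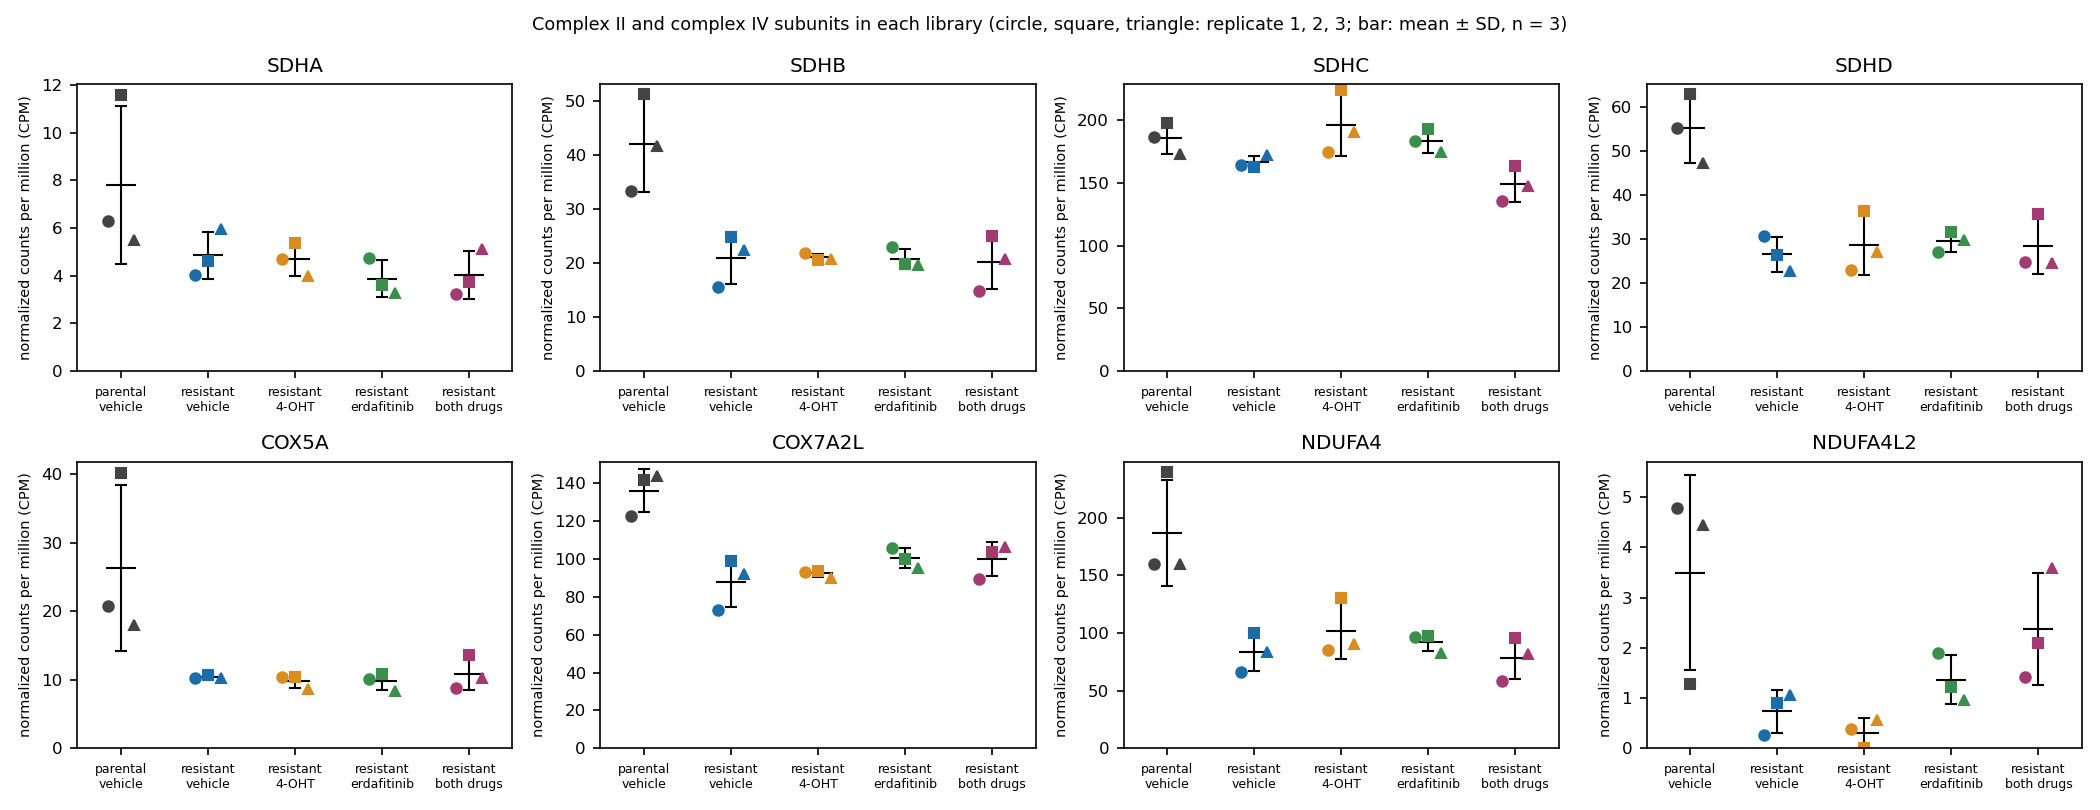
Normalised CPM (y axis, linear from 0) of the 4 subunits of complex II and of COX5A, COX7A2L, NDUFA4 and NDUFA4L2 of complex IV in each of the 15 libraries, by group along the x axis; circle, square and triangle are replicates 1, 2 and 3, and bars give mean ± SD. For SDHB, SDHD, COX5A, COX7A2L and NDUFA4 every resistant library, on any treatment, lies below every parental library, whereas the SDHC libraries on 4-OHT and on erdafitinib overlap the parental ones.

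In complex III, UQCRC2, a core protein of the matrix arm (chromosome 16, 21953288 to 21983660, plus strand), was at 390.2, 483 and 306 CPM in parental and 235, 206 and 192 CPM in resistant vehicle libraries. The groups did not overlap, and UQCRC2 fell by 0.90 ± 0.17 (adjusted p = 0.00105), the smallest adjusted p among the members in this comparison. UQCRH, the hinge protein beside cytochrome c1, did not pass the test (0.04 ± 0.16, adjusted p = 0.884), nor did UQCRHL (-0.22 ± 0.44, adjusted p = 0.735), whose reads may be shared with UQCRH.

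In complex I, NDUFS4, an accessory subunit needed for the stability of the NADH-oxidising arm (chromosome 5, 53560633 to 53683338, plus strand), was at 55.5, 83.4 and 82.8 CPM in parental and 22.8, 42.9 and 39.0 CPM in resistant cells. All resistant libraries were below all parental ones, a fall of 1.08 ± 0.26 (adjusted p = 0.00469). NDUFA8, an accessory subunit on the intermembrane face (chromosome 9, 122144058 to 122159779, minus strand), was at 45.4, 51.0 and 61.5 CPM against 20.8, 33.6 and 28.5 CPM and fell by 0.93 ± 0.25 (adjusted p = 0.00901). NDUFB1, a membrane arm subunit, was at 60.5, 74.2 and 50.1 CPM against 42.8, 44.9 and 41.7 CPM, a fall of 0.51 ± 0.19 (adjusted p = 0.0489). NDUFS1, the largest core iron-sulphur subunit, was at 245, 253 and 185 CPM against 202, 144 and 145 CPM and fell by 0.48 ± 0.18 (adjusted p = 0.0459). Its groups overlapped, with resistant replicate 1 above parental replicate 3.

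The rise in complex I was that of NDUFA7, an accessory subunit of the matrix arm (chromosome 19, 8308768 to 8321375, minus strand), which was at 0.84, 0.16 and 1.13 CPM in parental and 1.81, 3.70 and 2.46 CPM in resistant cells. It rests on 10, 1 and 31 counts against 35, 99 and 72; the groups were separate, and the log2 fold change was 1.74 ± 0.45 (adjusted p = 0.00736). NDUFA6-DT, a noncoding transcript that starts beside NDUFA6 in the opposite direction and is given after its values were seen, was at 1.76, 0.16 and 1.27 CPM against 2.32, 2.88 and 2.91 CPM (1.24 ± 0.45, adjusted p = 0.0442). Of the 7 core catalytic subunits of complex I, 1 was called lower (NDUFS1). Of the 11 accessory subunits with NDUFB symbols 1 was lower, and of the 19 other accessory subunits 2 were lower and 1 higher. Accessory subunits make up most of complex I, so these calls do not set them apart.

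In complex V, ATP5F1A, the alpha subunit of the catalytic F1 head (chromosome 18, 46080248 to 46104334, minus strand), was at 220.1, 223 and 230.0 CPM in parental and at 267, 326 and 290.3 CPM in resistant cells on vehicle. The groups were separate, and ATP5F1A rose by 0.39 ± 0.14 (adjusted p = 0.0405). Over the 5 subunits of the F1 head the median log2 fold change was 0.30, but ATP5F1B, its partner in the catalytic sites, was at 492, 609 and 417 against 492, 483 and 411 CPM, with a difference of -0.13 ± 0.19 (adjusted p = 0.622). The genes for subunit c, which forms the rotating ring, did not pass the test: ATP5MC1 differed by -0.48 ± 0.19 (adjusted p = 0.0659), ATP5MC2 by -0.09 ± 0.38 and ATP5MC3 by 0.32 ± 0.25. ATP5IF1, the inhibitor that stops ATP hydrolysis by the enzyme, differed by 0.05 ± 0.19 (adjusted p = 0.855).

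Of the 16 members that changed on vehicle, 8 did so in each of the 17 alternative fits and left-out libraries tried: COX5A, COX7A2L, NDUFA4, NDUFA8, NDUFS4, SDHB, SDHD and UQCRC2. ATP5F1A, COX7C and NDUFS1 were not called in 10 of the 17, NDUFB1 in 11, COX5B and NDUFA6-DT in 7, NDUFA4L2 in 2 and NDUFA7 in 1. Among the left-out libraries, parental replicate 3 moved the number of members called by over 1.5 times: without it 26 members passed (6 higher and 20 lower, against 20.5% and 16.1% of all genes). With the main axis of within-group spread as a covariate 41 members passed (13 higher and 28 lower), against 30.6% and 24.2% of all genes. That axis was computed from these same counts. With a correction for GC content and length 22 members passed (2 higher and 20 lower), against 24.3% and 24.8%.

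The resistant cells on 4-OHT, on erdafitinib and on both drugs were each set against the same 3 parental libraries, so these comparisons share their controls with the one above and with each other. Of all genes, 35.3% differed on 4-OHT, 35.2% on erdafitinib and 34.6% on both drugs. Among the members, 2 were higher and 10 lower on 4-OHT (backgrounds of 19.2% and 16.2%), 2 and 12 on erdafitinib (19.5% and 15.7%), and 2 and 14 on both (19.4% and 15.2%). The median log2 fold change of complex II was -0.83, -0.94 and -0.94 in that order, that of complex IV -0.56, -0.57 and -0.62, and that of complex V 0.04, 0.02 and -0.04. Without resistant erdafitinib replicate 2 or 3 the count on erdafitinib was 7 in place of 14, and without resistant combination replicate 1 that on both drugs was 10 in place of 16.

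SDHB fell by 1.00, 1.01 and 1.05 against parental on 4-OHT, erdafitinib and both drugs, and SDHD fell by 0.94, 0.90 and 0.96, each with an edgeR adjusted p of 0.00387 or less. On 4-OHT, SDHB was at 21.9, 20.6 and 20.7 CPM and SDHD at 22.9, 36.2 and 26.9 CPM. On erdafitinib, SDHB was at 23.0, 19.9 and 19.6 CPM and SDHD at 26.9, 31.6 and 29.7 CPM, and on both drugs they were at 14.9, 25.1 and 20.9 and at 24.7, 35.7 and 24.5 CPM. No treated resistant library reached the lowest parental library for either gene. SDHA, at 4.71, 5.38 and 4.00 CPM on 4-OHT (-0.72 ± 0.32, adjusted p = 0.0993), was at 4.76, 3.61 and 3.27 CPM on erdafitinib and passed the test there (-0.98 ± 0.32, adjusted p = 0.0279). It passed on both drugs as well, at 3.23, 3.72 and 5.14 CPM (-0.93 ± 0.32, adjusted p = 0.0365). Of 17 alternatives the SDHA call was lost in 6 on erdafitinib and in 7 on both drugs, among them those without parental replicate 2, without the 2 shallowest libraries and with only the groups compared.

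COX5A differed from parental by -1.42, -1.42 and -1.27, NDUFA4 by -0.87, -1.01 and -1.25, UQCRC2 by -0.80, -0.95 and -1.06, and NDUFS4 by -1.15, -1.20 and -1.26 in the same order. COX5A stayed within 8.37 and 13.6 CPM in all 9 drug-treated libraries, and UQCRC2 within 164 and 259 CPM, ranges below the lowest parental library of each gene. NDUFA4 reached 129.9 CPM in resistant 4-OHT replicate 2, the highest treated library, still under the lowest parental value of 160.0 CPM. NDUFA7 differed by 1.41, 1.31 and 1.71, and all treated libraries were above the highest parental library, but the call was lost in 8 of 17 alternatives on erdafitinib, 4 on 4-OHT and 1 on both drugs. ATP5F1A passed on erdafitinib (0.40 ± 0.14, adjusted p = 0.0374) and not on 4-OHT (0.37 ± 0.14, adjusted p = 0.0506) or both drugs (0.22 ± 0.14, adjusted p = 0.245). On both drugs COX8A passed (-1.69 ± 0.59, adjusted p = 0.0392), as did ATP5PF, a subunit of the stalk that holds the F1 head (0.51 ± 0.18, adjusted p = 0.0412), whose groups overlapped. The COX8A call was lost in 5 of 17 alternatives, all of which left out libraries (parental replicate 1 or 2, combination replicate 1 or 2, or the 2 shallowest), the ATP5PF call in 10, DESeq2 and the GC and length correction among them, and the ATP5F1A call on erdafitinib in 10.

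**Figure D3:**
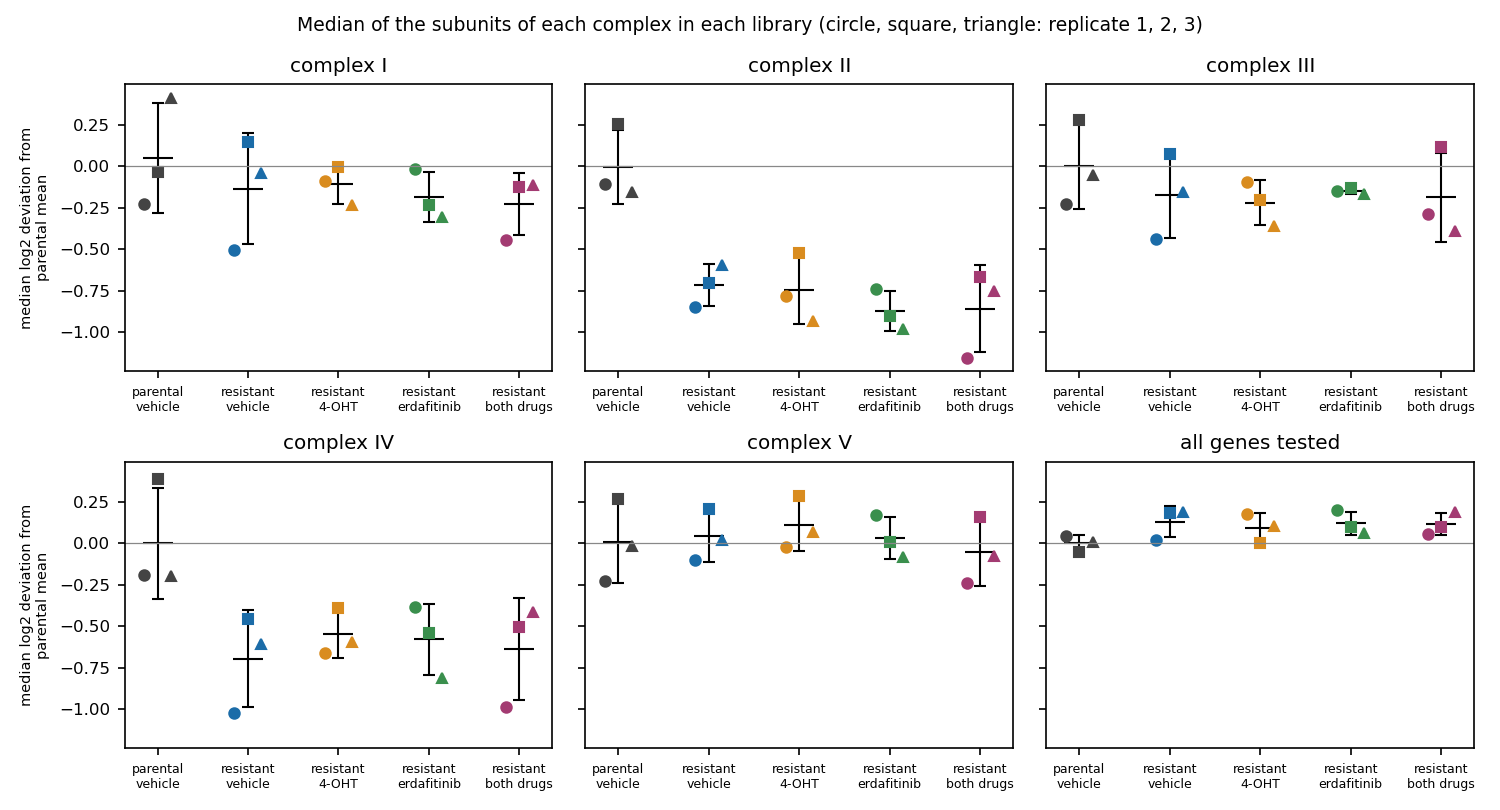
Median over the subunits of each complex, and over all genes tested, of the log2 deviation from the parental mean (y axis) in each library, by group along the x axis; bars give mean ± SD of 3 libraries. As counted, complex II lies lower in every resistant library (at most -0.52) than in any parental library (at least -0.16). Complex IV does so too (at most -0.38 against at least -0.19), while the groups of complexes I, III and V overlap. After the correction for GC content and length (not drawn) complex II stayed separate (at most -0.56 against at least -0.12). Complex IV did not: resistant 4-OHT replicate 2 (-0.21) lay above parental replicates 1 (-0.22) and 3 (-0.23).

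Within the resistant line the drugs changed no member at an adjusted p under 0.05 by edgeR. Erdafitinib against vehicle changed 0.0925% of all genes and 4-OHT against vehicle 0.0% of them; at an unadjusted p under 0.05 there were 0 members in each, and DESeq2 called 0 in each. Both drugs against 4-OHT alone changed 0.642% of all genes, with 2 members at an unadjusted p under 0.05 and 1 called by DESeq2; both against vehicle changed 0.487%, with 1 and 0; and both against erdafitinib alone changed 0.0%, with 1 and 0. Erdafitinib pooled over the libraries with and without 4-OHT changed 1.71% of all genes, with 1 member at an unadjusted p under 0.05 and 1 called by DESeq2. The interaction of the drugs changed 0.0% of all genes, with 1 and 0 members. The median SE of a member's log2 fold change was 0.28 for a comparison of 2 groups and 0.19 for the pooled one. Changes near these errors were not detectable here, and changes of several times their SE went uncalled too, as for NDUFA4L2 and SDHC below. The absence of calls therefore does not exclude drug effects of that size.

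NDUFA4L2 was the member with the smallest p in both drugs against 4-OHT, in both against vehicle and in the pooled comparison. It was at 0.38, 0 and 0.56 CPM on 4-OHT, at 1.90, 1.23 and 0.97 CPM on erdafitinib and at 1.42, 2.09 and 3.60 CPM on both drugs. The libraries on both drugs all lay above those on vehicle and on 4-OHT, but counts were low (11, 0 and 12 on 4-OHT; 36, 46 and 84 on both). Its log2 fold change for both drugs against 4-OHT was 2.70 ± 0.71 (unadjusted p = 0.00195, adjusted p = 0.146), and for erdafitinib pooled 1.78 ± 0.48 (unadjusted p = 0.00232, adjusted p = 0.0900). Other fits placed it past the threshold, as given with the processing alternatives. Against the shared parental libraries, NDUFA4L2 was lower on 4-OHT (-3.30 ± 0.72, adjusted p = 0.00255), while its values on erdafitinib (-1.38 ± 0.63, adjusted p = 0.107) and on both drugs (-0.60 ± 0.62, adjusted p = 0.501) did not pass. Per length, the mean level of NDUFA4L2 was 2.45% of that of NDUFA4 in parental cells, and 1.14%, 0.41%, 1.85% and 3.84% in resistant cells on vehicle, 4-OHT, erdafitinib and both drugs.

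SDHC was the other member at a small unadjusted p. Its levels were 174, 224 and 190.4 CPM on 4-OHT, 183, 193 and 174 CPM on erdafitinib and 135, 163 and 148 CPM on both drugs. The libraries on both drugs all lay below those on either drug alone. SDHC differed by -0.40 ± 0.13 for both drugs against 4-OHT (unadjusted p = 0.00695, adjusted p = 0.285) and by -0.30 ± 0.13 against erdafitinib (unadjusted p = 0.0311, adjusted p = 1). It had the smallest p in the interaction as well (-0.54 ± 0.18, unadjusted p = 0.00890, adjusted p = 1), and in 4-OHT against vehicle (0.24 ± 0.13, adjusted p = 1). The members with the next smallest p had differences that were smaller or noisier: NDUFA4 in both drugs against 4-OHT (-0.38 ± 0.23), the noncoding UQCRFS1-DT in both against erdafitinib (1.01 ± 0.76), ATP5PD, a stalk subunit, in erdafitinib against vehicle (0.22 ± 0.15) and NDUFA5, a matrix arm subunit, in the pooled comparison (0.26 ± 0.15).

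Some members varied widely within groups. The median SD of the members' log2 CPM within groups was 0.35, against 0.38 over all genes tested, and 8 members (9.64%, against 10.3% of all genes) had an SD above 1. UQCR10, a small complex III subunit named here after its values were seen, was at 11.6, 9.37 and 64.9 CPM in parental cells, at 9.44, 93.1 and 89.4 CPM in resistant cells on vehicle, at 79.4, 28.3 and 26.2 CPM on 4-OHT, at 70.1, 25.4 and 19.4 CPM on erdafitinib and at 17.4, 28.1 and 76.3 CPM on both drugs. In every group 1 or 2 libraries were several times the others, and the groups overlapped. NDUFA3, a complex I membrane subunit also chosen after its values were seen, ranged from 1.91 to 22.6 CPM, both in parental cells. Both followed the main axis of within-group spread, and a correction for GC content and length took the within-group SD of NDUFA3 from 1.30 to 0.91 and that of UQCR10 from 1.33 to 1.31. With that axis as a covariate both were called higher than parental in all 4 resistant groups. On vehicle UQCR10 was higher by 1.29 ± 0.29 (edgeR adjusted p = 0.00133) and NDUFA3 by 1.03 ± 0.18 (adjusted p = 0.000144). Without the axis the differences were 1.13 ± 0.88 and 0.60 ± 0.86. The axis was computed from these same counts and both genes followed it, so these calls are not independent support for a difference. UQCR10 was called on vehicle without parental replicate 3 as well.

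NDUFB8, a complex I subunit chosen after its values were seen, was instead high in the 2 shallowest libraries, at 19.1 CPM in parental replicate 2 and 14.8 CPM in resistant 4-OHT replicate 2, against 1.93 to 7.13 CPM in the others. In those 2 libraries it was 4.21 and 4.26 times the mean of the other libraries of their group, and 9 members were over 1.5 times in both. Other members were low in both, among them NDUFV1 (0.28 and 0.29 times) and NDUFA3 (0.14 and 0.36 times). The share of all genes that moved either way was not counted. The log2 difference of NDUFB8 between the lines was -1.23 ± 0.66 (adjusted p = 0.167), and -0.19 without the 2 shallowest libraries. Depth moved with these members' levels, and its part in them was not tested.

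**Figure D4:**
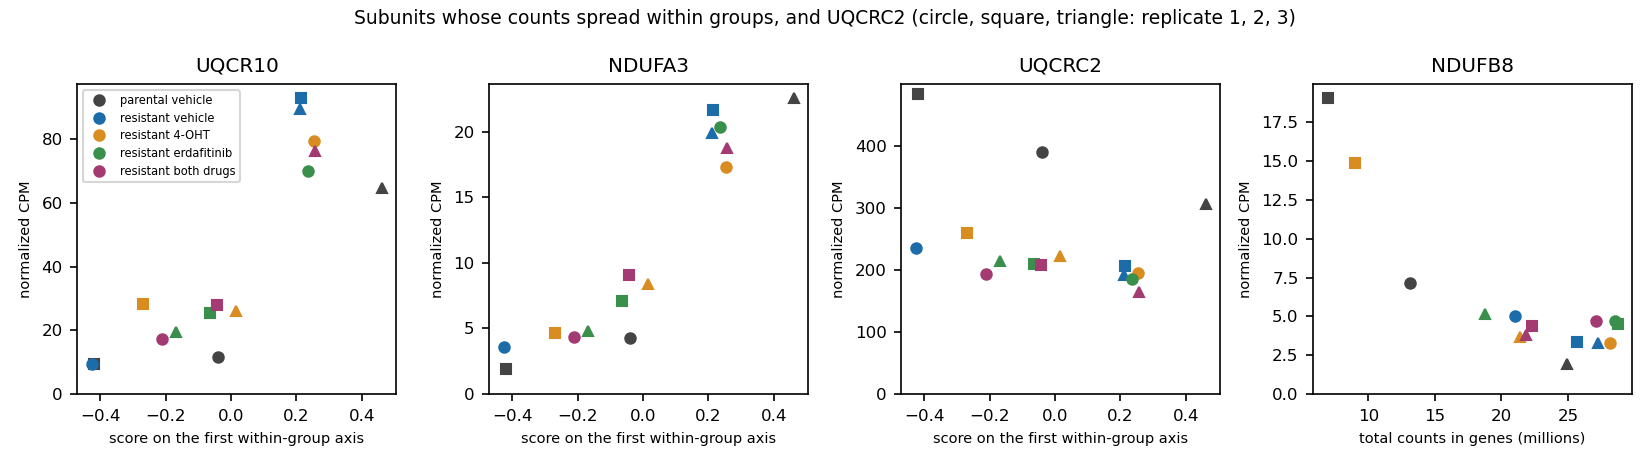
Normalised CPM (y axes, linear from 0) of UQCR10, NDUFA3 and UQCRC2 in the 15 libraries against each library's score on the main axis of within-group spread (no unit), and of NDUFB8 against total counts; colours are groups and symbols replicates. UQCR10 and NDUFA3 are high in libraries with high scores in every group, UQCRC2 separates the parental libraries (306 to 483 CPM) from all resistant ones (164 to 259 CPM) at any score, and NDUFB8 is highest in the 2 shallowest libraries.

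Other genes of the pathway were read from lists of assembly factors, carriers, regulators and fuel pathways, for resistant against parental cells on vehicle; these lists too were described and not tested as sets, and each is to be read against the 19.9% of genes higher and 16.0% lower. Of 18 complex I assembly factors 6 fell and none rose (median log2 fold change -0.56), with TMEM126B, which builds the membrane arm, at -1.24 ± 0.22 (adjusted p = 0.000518) and DMAC1, another membrane arm factor, at -1.18 ± 0.25 (adjusted p = 0.00217). Of 26 complex IV assembly factors 7 fell and none rose (median -0.34), with COX10, which makes heme O for the enzyme, at -1.22 ± 0.19 (adjusted p = 0.000200) and PET117 at -3.39 ± 1.20 (adjusted p = 0.0399) from a parental mean of only 0.84 CPM. Of 9 complex III factors UQCC1 rose (0.88 ± 0.17, adjusted p = 0.00122) and LYRM7, which inserts the Rieske protein, and UQCC5 fell (-0.86 ± 0.17 and -1.22 ± 0.44). None of 3 complex II factors passed, and of 4 complex V factors TMEM242 rose (0.87 ± 0.24) and ATPAF1 fell (-0.64 ± 0.22).

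Among 15 genes of the electron carriers cytochrome c, ubiquinone and the electron transfer flavoprotein, 4 fell and 2 rose. CYCS, cytochrome c, went from 376 ± 35.0 to 163 ± 16.7 CPM (SD, n = 3 per group), a fall of 1.21 ± 0.15 with an edgeR adjusted p of 2.52e-05. COQ9, needed for ubiquinone synthesis, fell by 1.59 ± 0.21 (adjusted p = 3.87e-05), whereas PDSS2, which makes the ubiquinone tail, rose by 0.75 ± 0.14 (adjusted p = 0.000763) and ETFB by 1.43 ± 0.49 (adjusted p = 0.0333). CYCS was called in the pooled erdafitinib comparison as well, where it rose by 0.49 ± 0.11 (adjusted p = 0.0305).

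Among 13 regulators of mitochondrial genes, 3 fell and 1 rose. PPARGC1A, the coactivator PGC-1alpha of mitochondrial genes, was at 24.2, 25.9 and 16.7 CPM in parental and at 3.15, 1.57 and 2.43 CPM in resistant cells on vehicle, a fall of 3.23 ± 0.32 (adjusted p = 2.56e-06). Its relative PPARGC1B was at 23.7, 20.2 and 14.7 CPM against 3.71, 3.37 and 4.48 CPM and fell by 2.33 ± 0.26 (adjusted p = 8.23e-06). Both sets of libraries were far apart. Within the resistant line PPARGC1B was at 5.5, 7.48 and 4.69 CPM on 4-OHT, 7.58, 9.40 and 8.21 CPM on erdafitinib and 8.40, 8.40 and 10.8 CPM on both drugs, and it rose in the pooled erdafitinib comparison (0.89 ± 0.18, adjusted p = 0.0177), in which no subunit passed the test. GABPB1, the partner of the ETS factor GABPA, fell by 0.60 ± 0.21 (adjusted p = 0.0355), and TFAM, which packages and transcribes mitochondrial DNA, rose by 0.80 ± 0.18 (adjusted p = 0.00290). NRF1 (-0.55 ± 0.22, adjusted p = 0.0656) and the estrogen-related receptor ESRRA (-0.84 ± 0.63, adjusted p = 0.322) did not pass.

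The 13 subunits encoded in the mitochondrial genome had a median log2 fold change of -0.21, with MT-ND6 (3.39 ± 0.39, adjusted p = 1.29e-05) and MT-ATP8 (0.76 ± 0.24, adjusted p = 0.0222) higher and MT-ND3 (-1.70 ± 0.39, adjusted p = 0.00331) lower. MT-ND6 is the subunit encoded on the light strand, and MT-ATP8 overlaps MT-ATP6, so that reads there are uncertain. Of 18 genes of the tricarboxylic acid cycle and pyruvate dehydrogenase 5 fell and none rose (median -0.38), led by PDHB (-2.30 ± 0.26, adjusted p = 1.14e-05), the beta subunit of pyruvate dehydrogenase, and FH, fumarase (-0.75 ± 0.22, adjusted p = 0.0148). Of 17 glycolytic genes 6 rose and 1 fell (median 0.66), with PKM, pyruvate kinase, at 1.29 ± 0.26 (adjusted p = 0.00160), PGK1, phosphoglycerate kinase, at 1.19 ± 0.13 (adjusted p = 1.02e-05) and HK2, a hexokinase, at -0.84 ± 0.16 (adjusted p = 0.000777).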

How the data were processed

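RNA of T47D cells was sequenced as stranded libraries in 5 groups of 3. The authors deposited raw counts per gene from featureCounts 2.0.1 with reverse strandedness and Ensembl 104 genes on GRCh38, per the file headers. HISAT2 2.1.0 and featureCounts 1.4.6-p1 are named in the submitters' processing notes. No option to count multi-mapping reads stands in the headers, so members with near copies can be undercounted.

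From these counts, all 15 libraries were fitted together in edgeR 4.0.16 (R 4.3.3): TMM scaling (factors 0.907 to 1.10), edgeR's filter on low counts (16210 of 60664 genes kept), quasi-likelihood F tests with 10 residual degrees of freedom, and Benjamini-Hochberg adjustment over all genes tested, with 0.05 as the threshold. CPM are TMM-normalised; SE is the absolute log2 fold change divided by the square root of F. TPM used the authors' exonic lengths. Depth ran from 6946684 to 28717380 counts per library, and the biological coefficient of variation was 30.8%. The main fit was tested on simulated counts, for resistant vehicle against parental vehicle only. Those counts had no main axis of within-group spread and a far smaller share of changed genes than was called here. They therefore do not show how the fit behaves under these conditions. The alternatives were not tested in this way.

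Resistant vehicle was compared with parental vehicle; resistant groups were compared with each other, with erdafitinib pooled over 4-OHT and as an interaction; and each drug-treated resistant group was compared with the parental group. Alternatives were DESeq2 1.42.0 and its size factors, other count filters, a replicate block, a correction for GC content and length (mgcv 1.9.3, GENCODE 29 GC content), the main within-group axis as a covariate, the mitochondrial genome left out, the 2 shallowest libraries left out, only the groups compared, and each library left out in turn. The labels do not say whether replicate numbers pair the samples, and the main fit assumed no pairing. The correlations of same-numbered libraries, given below, cannot exclude shared cultures or days.

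The members and lists were chosen with earlier results of these data known. The text names the 4 SDH genes, up to 4 risers and 4 fallers called per other complex, the alternative isoforms, members called or with the 3 smallest p in the other comparisons, members at the edges of the count rule and of the TPM range, and up to 2 risers and 2 fallers per list of other pathway genes with PPARGC1A, PPARGC1B, ESRRA, NRF1 and TFAM. Promoter sequences are from RefSeq (GRCh38.p14). Protein sequences were not used here.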

Additional observations from a re-analysis of the deposited data

How the results depend on the processing

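No called result reversed its direction under any alternative; the medians of complexes I, III and V, which lie near 0, changed sign under some, as given below. For resistant against parental cells on vehicle, 16 members changed; 27 did with a replicate block and the GC and length correction, 41 with the main within-group axis as a covariate and 8 with only the groups compared, and leaving out each library gave 11 to 26 (26 without parental replicate 3, where the median of all genes moved from 0.07 to 0.20). Against parental, the resistant cells on 4-OHT had 12 members changed, and 23, 25 and 27 with the GC and length correction, with that correction and the block, and with the axis (leave-one-out 9 to 16). On erdafitinib there were 14, and 22, 23 and 35 (leave-one-out 7 to 19). On both drugs there were 16, and 27 with the block and GC correction, 38 with the axis and 9 with only the groups compared (leave-one-out 10 to 22). The cause of these shifts was not tested.

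For both drugs against 4-OHT, 0 members passed; 1 did by DESeq2 and with no filter, and 2 with the GC and length correction, with that and the block, and with the axis. NDUFA4L2 was among them each time, with an adjusted p of 0.00431 by DESeq2, 0.0400 with no filter, 0.0119 with the GC and length correction, 0.0222 with that and the block, and 0.00245 with the axis, and of 0.137 to 0.204 in the other alternatives that left out no library of the groups compared. SDHC was the second, with an adjusted p of 0.0279, 0.0282 and 0.0442 in the last 3 of these. Both drugs against vehicle had 1 member with the GC and length correction and 1 with the axis. Erdafitinib pooled had 1, NDUFA4L2, by DESeq2, with no filter, with the GC and length correction, with that and the block, and with the axis (adjusted p of 0.00118 to 0.0297). Leaving out each library of the groups compared gave 0 members in every drug comparison within the resistant line.

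The median log2 fold change on vehicle was -0.55 for complex II and 0.11 for complex III without the 2 shallowest libraries, and -0.55 and 0.11 without parental replicate 2 alone. Over the left-out libraries it ran from -0.32 to 0.05 for complex I, -0.91 to -0.55 for complex II, -0.29 to 0.11 for complex III, -0.79 to -0.53 for complex IV and -0.17 to 0.10 for complex V. For erdafitinib pooled it ran from -0.10 to -0.01, -0.14 to -0.02, -0.17 to -0.02, -0.14 to 0.01 and -0.12 to 0.02 in the same order.

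Same-numbered libraries had correlations of their deviations from -0.83 to 0.77, all were over 0.1 in 1 of 10 pairs of groups, and a library correlated best with its own number in 20 of 60 cases. With a replicate block 19 members changed on vehicle, and 12, 14 and 18 on 4-OHT, erdafitinib and both drugs against parental. Among the members called on vehicle, NDUFA7, NDUFA4L2 and NDUFA6-DT had the fewest counts, each with a library of 5 or fewer; some members not called went as low.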
